A study of Mus musculus with 14 samples.

Results

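The genes described here are 9 members of the tissue kallikrein family, Klk5, Klk6, Klk7, Klk8, Klk9, Klk10, Klk11, Klk13 and Klk14, together with Spink5. They were taken as a list of names. All 10 were present among the 27179 genes counted in cultured mouse keratinocytes and among the 24411 genes quantified in mouse epidermis. The 9 kallikrein genes lie in a row on the plus strand of chromosome 7, from Klk14 at chr7:43690418-43695535 to Klk5 at chr7:43842269-43851181 (mm10), a stretch of 160764 bases that holds 11 annotated genes in all. Spink5 lies elsewhere, at chr18:43963241-44022487, also on the plus strand.

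Tissue kallikreins are secreted serine proteases that are made as inactive precursors. In the granular layer of the epidermis they are released with lamellar bodies into the space between cells, where they activate each other and cut the proteins of corneodesmosomes, the junctions that hold the cells of the stratum corneum together, so that these cells can be shed. Spink5 encodes LEKTI, an inhibitor with many domains that blocks kallikreins in that space, and loss of human SPINK5 causes Netherton syndrome, a disease of a leaky and peeling skin barrier. The transcription factor p63 is needed to form and maintain the epidermis, and its alternative C-termini are named alpha, beta and gamma.

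RNA was sequenced from primary keratinocytes grown in low calcium medium and from whole epidermis, both taken from newborn mice. Mice labelled p63beta carry KRT14-Cre and a floxed exon 13 of Trp63 on both alleles (KRT14-Cre; Trp63-Ex13fl/fl), and mice labelled p63alpha carry the same floxed alleles without Cre (Trp63-Ex13fl/fl). KRT14 is the gene of a keratin of basal keratinocytes, so its promoter drives Cre in keratinocytes. Keratinocytes gave 3 p63beta and 3 p63alpha libraries, and epidermis gave 4 p63beta and 4 p63alpha libraries. Separate animals or cultures are not named for the libraries, so every p-value reflects only the spread among them, which may be technical.

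Depth ran from 20688027 to 30066041 counted read pairs per keratinocyte library, and from 21290068 to 44909629 estimated counts per epidermis library. In epidermis, the Trp63 transcript NM_011641 was listed at 0 in all p63beta libraries and at 37.5 to 107 TPM (a level per transcript length, scaled to library size) in p63alpha libraries, while NM_001127262 stood at 134 to 250 TPM in p63beta and 8.01 to 23.6 TPM in p63alpha, so no epidermis library went against its label. The keratinocyte table has no transcript values, and the loss of the exon was not analysed there. The summed level of 6 basal keratinocyte markers, among them Krt5 and Krt14, was 24140 to 32909 CPM (counts scaled to library size) in p63beta and 22921 to 36273 CPM in p63alpha keratinocytes. Granular layer markers summed to 140 to 280 CPM in p63beta and 205 to 430 CPM in p63alpha keratinocytes, and to 12487 to 20090 CPM in p63beta and 11996 to 15776 CPM in p63alpha epidermis. Among the keratinocytes, p63beta library 3 held 3081 CPM of 6 heart muscle markers, against 93.5 CPM in the lowest p63beta library and 69.5 to 170 CPM in p63alpha libraries. Fibroblast, skeletal muscle and endothelial markers were highest in the same library.

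In keratinocytes none of the 10 genes was called in edgeR's quasi-likelihood test at an adjusted p under 0.05, a rule that called 0.101% of the 13820 genes tested. With all 6 libraries the kallikrein genes leaned one way: 7 of the 8 that were abundant enough to test had a negative log2 fold change of p63beta over p63alpha, with a median of -0.45, beside a median of -0.0013 for all genes. That lean depended on which libraries were in: without p63alpha library 1 it turned, with 2 of the 8 negative and a median of 0.83. Without p63beta library 2 or 3, 5 and 4 of the 8 were negative (medians -0.099 and -0.082). Without p63beta library 1, or p63alpha library 2 or 3, all 8 were negative (medians -1.48, -0.73 and -0.87), as they were when the fit held a block for the replicate number (median -0.74). Within the pairs of libraries that share a replicate number, 6 of the 8 were lower in p63beta in every pair, as were 18.2% of all genes tested. Klk8 and Klk11 were the 2 members whose p63beta libraries all lay below all p63alpha libraries, a pattern seen in 5.72% of genes tested. In bulk RNA, fewer cells that make a transcript and less of it per cell cannot be told apart.

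**Figure D1:**
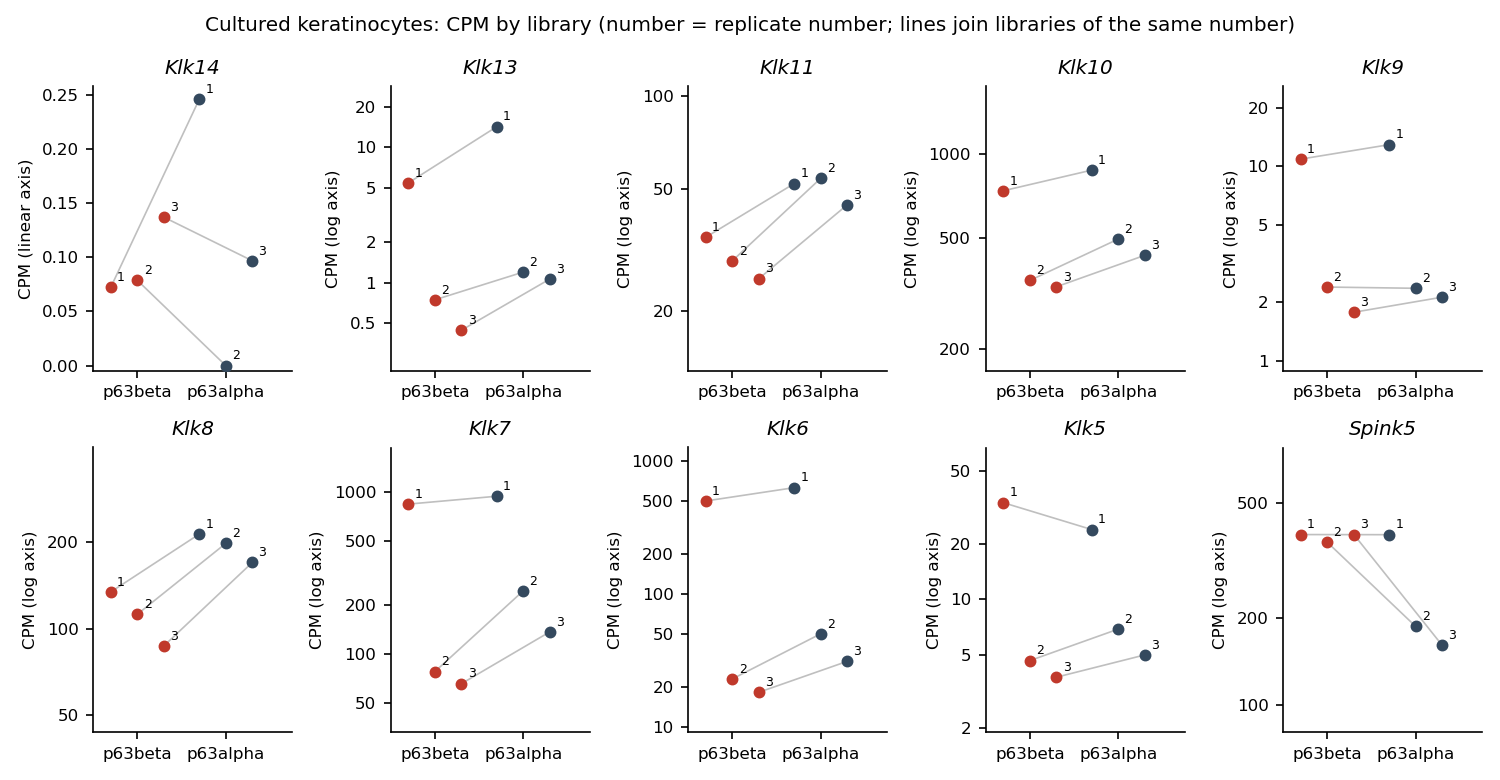
Each panel plots the level of 1 gene, in CPM, in the 3 p63beta (left, red) and 3 p63alpha (right, dark) keratinocyte libraries, with lines between libraries of the same replicate number; axes are logarithmic except for Klk14. Klk8 and Klk11 are the panels in which the genotypes do not overlap, and in Klk5, Klk6, Klk7, Klk9, Klk10 and Klk13 the libraries numbered 1 stand above the rest in both genotypes.

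Klk8 (Entrez 259277, chr7:43797577-43803822) encodes neuropsin, a trypsin-like protease of the granular layer that is also known from the hippocampus. It measured 134, 112 and 87.2 CPM in p63beta libraries 1, 2 and 3, against 213, 198 and 170 CPM in p63alpha libraries 1, 2 and 3. Every p63beta library was below every p63alpha library. The means were 111 ± 23.6 CPM in p63beta and 194 ± 22.02 CPM in p63alpha (SD, n = 3 each), a ratio of 0.574. The log2 fold change was -0.80 ± 0.17 (SE), which did not pass over all genes (edgeR adjusted p 0.347). In a fit with a block for the replicate number, the log2 fold change was -0.81 and Klk8 passed with an adjusted p of 0.0431, the 1 member that did, among 0.0362% of genes called lower in that fit. In the authors' deposited table of DESeq2 results, which called 0.54% of its genes lower, the log2 fold change of Klk8 was -0.69 with an adjusted p of 0.00109. The deposited keratinocyte log2 fold changes are shrunken, that is pulled towards no change, so their size is not set against that of edgeR. DESeq2 run on the same counts gave an adjusted p of 0.00112, with 0.516% of genes called lower.

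Klk11 (Entrez 56538, chr7:43774617-43779263), another trypsin-like kallikrein, was lower by a similar ratio. Its levels were 34.7, 29.1 and 25.5 CPM in p63beta libraries 1, 2 and 3, against 52.0, 54.1 and 44.3 CPM in p63alpha libraries 1, 2 and 3. Again the genotypes did not overlap. The means were 29.8 ± 4.68 CPM in p63beta and 50.1 ± 5.14 CPM in p63alpha (SD, n = 3 each), a ratio of 0.594 and a log2 fold change of -0.75 ± 0.14 (SE, edgeR adjusted p 0.248). The block did not bring it past the threshold (edgeR adjusted p 0.0603). In the authors' deposited table, by contrast, Klk11 had a shrunken log2 fold change of -0.67 with a DESeq2 adjusted p of 4.40e-04. DESeq2 as run here gave 4.42e-04. Without p63beta library 3, which held the heart muscle transcripts, the log2 fold changes were -0.68 for both Klk8 and Klk11 (edgeR adjusted p 0.771 for each). The summed granular layer markers were lower in p63beta in each pair as well, at 280, 151 and 140 CPM in p63beta libraries 1, 2 and 3 against 430, 320 and 205 CPM in p63alpha libraries 1, 2 and 3, and their part in the kallikrein levels was not tested.

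Klk8 and Klk11 do not sit side by side: Klk10 and Klk9 lie between them. The RefSeq promoter table for GRCm38.p6, the assembly behind mm10, matched all 9 kallikrein genes with 11 start sites. The 250 bases before the starts of Klk8, Klk11 and Klk10 are shown 5′ to 3′ on the plus strand. Klk8 and Klk11 were lower in keratinocytes without overlap, and Klk10 stood apart in epidermis in CPM (described further on). Capitals mark a GC box in Klk8 (chr7:43797327-43797576) and a p53 family half-site in Klk10 (chr7:43780804-43781053). Klk11 (chr7:43774367-43774616, the upstream of its 2 starts) holds no marked motif.
Klk8: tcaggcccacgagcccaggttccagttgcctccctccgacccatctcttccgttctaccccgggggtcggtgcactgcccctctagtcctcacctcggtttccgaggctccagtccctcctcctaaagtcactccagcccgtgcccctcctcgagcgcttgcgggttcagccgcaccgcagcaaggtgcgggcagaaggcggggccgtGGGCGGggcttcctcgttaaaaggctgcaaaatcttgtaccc
Klk11: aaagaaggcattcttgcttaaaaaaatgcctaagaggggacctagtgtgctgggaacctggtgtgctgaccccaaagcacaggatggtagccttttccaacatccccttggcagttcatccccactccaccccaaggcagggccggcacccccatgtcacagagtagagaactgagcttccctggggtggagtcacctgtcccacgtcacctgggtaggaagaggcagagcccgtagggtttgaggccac
Klk10: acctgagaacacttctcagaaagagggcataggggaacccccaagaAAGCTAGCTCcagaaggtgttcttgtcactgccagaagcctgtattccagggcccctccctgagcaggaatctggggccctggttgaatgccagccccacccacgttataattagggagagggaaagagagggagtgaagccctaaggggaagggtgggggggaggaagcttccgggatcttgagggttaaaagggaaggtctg
The motifs marked were the GC box CCGCCC, the TATA box TATAAA, the AP-1 site TGANTCA and the p53 family half-site. They were searched on both strands, and the half-site is the class of element that p63 also binds. None of these overlapped another in the 3 sequences. The GC box was present before 4 of the 11 kallikrein starts and in 32.7% of 32851 promoters of the same length. The half-site was present before 2 of the 11 starts, those of Klk10 and Klk13, and in 7.13% of all promoters. CATG, a core of such half-sites, was searched as well but not marked, and was in 53.95% of all promoters. It was present before the Klk11 start shown and absent before those of Klk8 and Klk10. The half-site of Klk10 has CTAG at its core instead. TATAAA and TGANTCA were before 0 of the 11 starts and in 12.4% and 6.75% of all promoters. Such a match describes the letters alone and says nothing of binding.

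The other tested kallikrein genes varied far more between replicate numbers than between genotypes in keratinocytes. Klk7 (Entrez 23993), a chymotrypsin-like protease that cuts corneodesmosin and desmocollin 1, measured 844, 77.9 and 65.6 CPM in p63beta libraries 1, 2 and 3, against 944, 246 and 137 CPM in p63alpha libraries 1, 2 and 3. The libraries numbered 1 were the highest of each genotype, and in each pair p63beta was the lower library. The fitted value for Klk7 was -0.47 ± 1.17 on the log2 scale (SE, edgeR adjusted p 0.979), and -0.95 ± 0.29 with the replicate block, where it did not pass either (edgeR adjusted p 0.303). Klk6 (Entrez 19144), a trypsin-like protease best known from the nervous system, measured 498, 23.1 and 18.3 CPM in p63beta and 626, 50.3 and 31.2 CPM in p63alpha (libraries 1, 2 and 3 of each). Here too the libraries numbered 1 stood apart, p63alpha library 1 by 15.4 times over the median of p63alpha libraries 2 and 3, and p63beta was lower in each pair. On the log2 scale p63beta differed from p63alpha by -0.44 ± 1.62 (SE, edgeR adjusted p 0.984), and by -0.73 ± 0.15 with the block (edgeR adjusted p 0.179).

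Klk10 (Entrez 69540), which encodes a kallikrein with little known proteolytic activity, was the highest of the 10 genes per length in the mean of both genotypes. It stood at 351 ± 168 FPKM (fragments per kilobase of exon, scaled to library size) in p63beta and 444 ± 176 FPKM in p63alpha (SD, n = 3 each). In CPM it measured 738, 352 and 335 in p63beta libraries 1, 2 and 3 and 875, 496 and 434 in p63alpha libraries 1, 2 and 3. The genotypes overlapped, although p63beta was lower in each pair by 0.25, 0.49 and 0.37 on the log2 scale, and the test over genotypes gave -0.35 ± 0.40 (SE, edgeR adjusted p 0.947), or -0.37 ± 0.08 with the block (edgeR adjusted p 0.180). Klk13 (Entrez 626834), a further trypsin-like member, was near the lower limit of the test, at 0.445 to 5.47 CPM in p63beta and 1.06 to 14.2 CPM in p63alpha (log2 fold change -1.35 ± 1.35, SE, edgeR adjusted p 0.937). It was lower in p63beta in each pair, and the blocked value was -1.13 ± 0.25 (SE, edgeR adjusted p 0.203).

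Klk5 and Klk9 showed no common direction. Klk5 (Entrez 68668), the trypsin-like protease that activates itself and other kallikreins and so is placed at the head of the cascade, measured 33.7, 4.64 and 3.76 CPM in p63beta libraries 1, 2 and 3, against 24.03, 6.88 and 4.98 CPM in p63alpha libraries 1, 2 and 3. It was higher in p63beta in pair 1 and lower in pairs 2 and 3 (log2 fold change 0.19 ± 1.001, SE, edgeR adjusted p 0.992, and -0.13 ± 0.22 with the block). Klk9 (Entrez 101533), a less studied member, measured 1.78 to 10.9 CPM in p63beta and 2.13 to 12.9 CPM in p63alpha (-0.24 ± 0.97, SE, edgeR adjusted p 0.986, and -0.16 ± 0.17 with the block). Klk14 (Entrez 317653), a trypsin-like protease that cuts desmoglein 1, was too low to be tested, with at most 0.137 CPM in p63beta and 0.246 CPM in p63alpha. The authors' deposited, shrunken log2 fold changes were -0.03 for Klk6, -0.05 for Klk7, -0.05 for Klk9, -0.21 for Klk10, -0.14 for Klk13 and 0.03 for Klk5. Klk5, Klk7, Klk9 and Klk10 were not called there (DESeq2 adjusted p 0.9998 for each), and Klk6 and Klk13 had no adjusted p.

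The libraries numbered 1 stood above the rest for Klk5, Klk6, Klk7, Klk9, Klk10 and Klk13, but not for Klk8 and Klk11. Relative to the median of p63alpha libraries 2 and 3, p63alpha library 1 held 12.6 times as much Klk13, 5.75 times as much Klk9, 4.93 times as much Klk7 and 4.05 times as much Klk5. The ratio was 1.88 for Klk10, 1.16 for Klk8 and 1.06 for Klk11. Summed genes of the granular layer and late differentiation stood at 4112 CPM in p63beta library 1 and 4287 CPM in p63alpha library 1. The other keratinocyte libraries held 1968 to 2662 CPM. Basal markers were lowest in the libraries numbered 1, at 24140 CPM in p63beta and 22921 CPM in p63alpha. The part of these differences in the kallikrein levels was not tested. When the pair numbered 1 was left out and the replicate block kept, 4 of the 10 genes passed among the 4 remaining libraries: Klk6, Klk8 and Klk11 were lower and Spink5 higher. That setting was chosen after the data were seen, and it called 585 genes in all, against 0 without pair 2 and 1 without pair 3, where no member passed.

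Spink5 (Entrez 72432) was on the opposite side of most kallikrein genes in 2 of the 3 pairs, higher in p63beta. It measured 389, 365 and 389 CPM in p63beta libraries 1, 2 and 3, against 388, 187 and 161 CPM in p63alpha libraries 1, 2 and 3. The p63beta libraries were alike, and p63alpha library 1 stood with them while p63alpha libraries 2 and 3 were lower. The means were 381 ± 13.5 CPM in p63beta and 245 ± 125 CPM in p63alpha (SD, n = 3 each), with a log2 fold change of 0.63 ± 0.34 (SE) that did not pass (edgeR adjusted p 0.812). In the authors' deposited table the shrunken log2 fold change of Spink5 was 0.38, with a DESeq2 adjusted p of 0.701.

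Set against the inhibitor per length, the sum of the 9 kallikrein genes was 19.0, 5.64 and 4.73 times the FPKM of Spink5 in p63beta libraries 1, 2 and 3, against 22.96, 18.8 and 17.4 times in p63alpha libraries 1, 2 and 3. It was lower in p63beta in each pair, most in pairs 2 and 3, and the genotypes overlapped through p63beta library 1. For Klk7 alone the ratio to Spink5 was 5.93, 0.582 and 0.461 in p63beta and 6.64, 3.59 and 2.33 in p63alpha (libraries 1, 2 and 3 of each). In p63beta libraries 2 and 3, therefore, Klk7 was below Spink5 on the FPKM scale, which no p63alpha library showed. These are ratios of RNA. Klk10, with little known proteolytic activity, made up 34.5% to 64.0% of the sum across keratinocyte libraries. The ratios therefore do not measure a balance of protease and inhibitor activity.

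**Figure D2:**
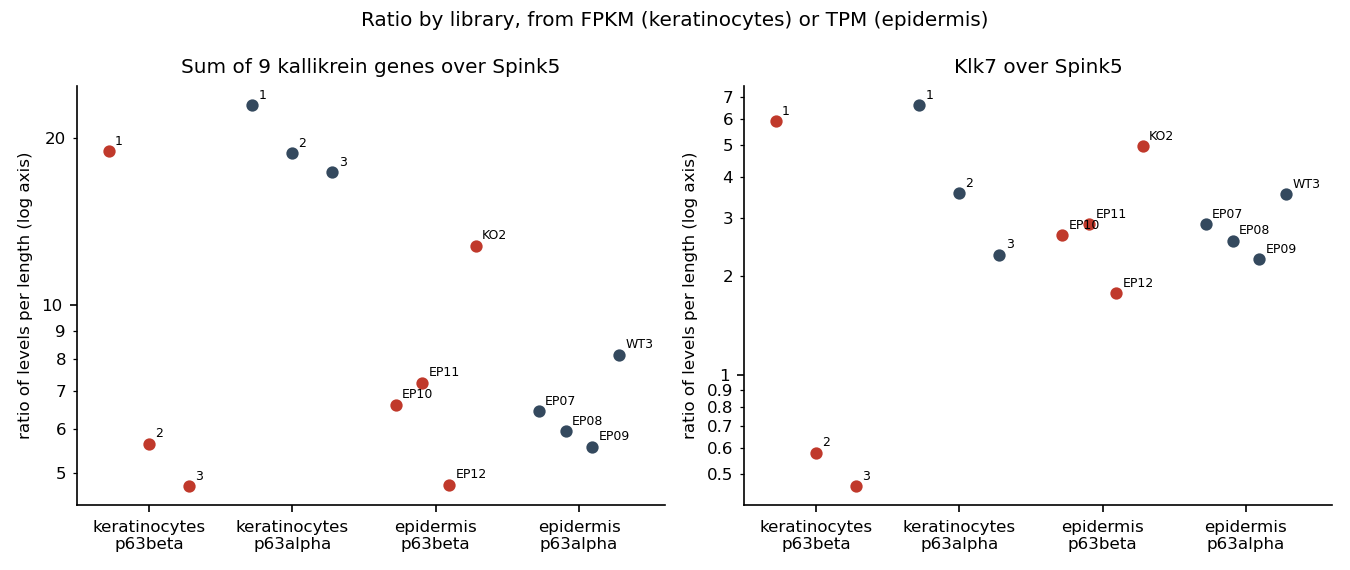
Each point is 1 library, and the log axes give the summed level of the 9 kallikrein genes (left) or the level of Klk7 (right) divided by that of Spink5, from FPKM in keratinocytes and TPM in epidermis, with p63beta in red and p63alpha in dark. Among keratinocytes p63beta libraries 2 and 3 lie below the other 4 libraries in both ratios; in epidermis the genotypes overlap.

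In epidermis the order of levels was different from that in culture. Klk7 led, at 1037 ± 97.5 TPM in p63beta and 1069 ± 121 TPM in p63alpha, and Klk5 followed at 704 ± 102 TPM in p63beta and 595 ± 79.7 TPM in p63alpha (SD, n = 4 each). Spink5 came next at 385 ± 168 TPM in p63beta and 386 ± 51.4 TPM in p63alpha, then Klk8 at 290 ± 85.3 TPM in p63beta and 289 ± 68.4 TPM in p63alpha. The ranges of Klk7, Klk5 and Spink5 did not overlap within either genotype, whereas those of Spink5 and Klk8, Klk8 and Klk9, and Klk9 and Klk11 did. Klk9 averaged 221 TPM in p63beta and 174 TPM in p63alpha, and Klk11 158 TPM in p63beta and 161 TPM in p63alpha. Klk10, the leader in culture, stood at 124 ± 20.1 TPM in p63beta and 78.8 ± 22.7 TPM in p63alpha. Klk13 averaged 66.2 TPM in p63beta and 81.8 TPM in p63alpha. Klk6 and Klk14 were lowest in both genotypes, with Klk14 at 0 to 2.54 TPM in p63beta and 0.0417 to 1.66 TPM in p63alpha.

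In keratinocytes the order in both genotypes was Klk10, Klk7, Klk6, Klk8, Spink5, Klk11 and Klk5 by mean FPKM, then Klk9 and Klk13 in an order that differed between genotypes, and Klk14 last. The ranges overlapped in 7 of the 9 neighbouring pairs of genes in p63beta and in 6 of 9 in p63alpha, against 5 of 9 in p63beta and 4 of 9 in p63alpha epidermis. Klk8 and Spink5 changed their spacing with genotype: their ranges overlapped in p63beta, at 84.2 ± 17.8 FPKM for Klk8 and 80.0 ± 2.83 FPKM for Spink5, but not in p63alpha, at 147 ± 16.7 FPKM for Klk8 and 51.5 ± 26.1 FPKM for Spink5 (SD, n = 3 each). FPKM and TPM come from different tables and are not compared in size.

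**Figure D3:**
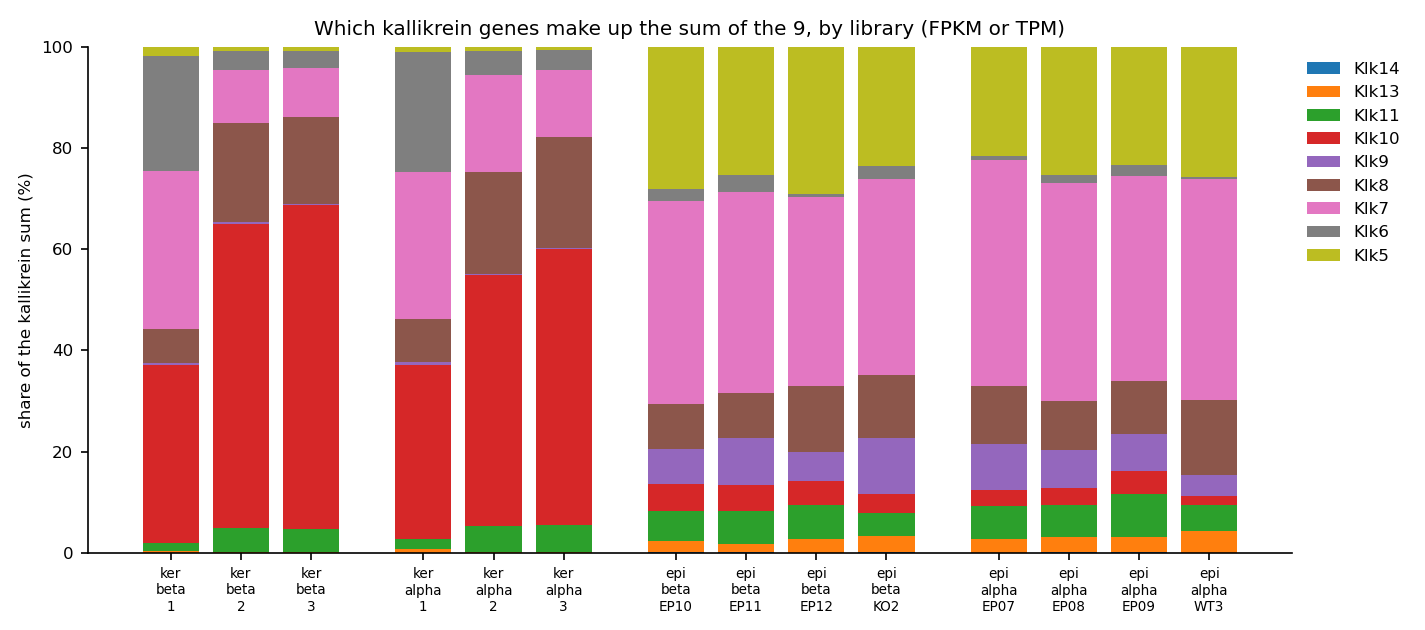
Stacked bars give the share of each kallikrein gene, in percent, in the sum of the 9 genes per length, for the 6 keratinocyte (ker, FPKM) and 8 epidermis (epi, TPM) libraries, p63beta left of p63alpha in each. Klk10 makes up 34.5% to 64.0% of the sum in keratinocyte libraries, while Klk7 and Klk5 together fill most of each epidermis bar.

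By share of the kallikrein sum, Klk10 held 35.2%, 60.2% and 64.0% in p63beta keratinocyte libraries 1, 2 and 3 and 34.5%, 49.6% and 54.6% in p63alpha libraries 1, 2 and 3. Klk6 held 22.8% in p63beta library 1 and 23.7% in p63alpha library 1, but at most 3.78% in the other p63beta libraries and 4.83% in the other p63alpha libraries. The libraries numbered 1 of both genotypes thus resembled each other in make-up more than they resembled the rest of their own genotype. In epidermis Klk7 held 37.4% to 40.2% of the sum in p63beta libraries and 40.6% to 44.7% in p63alpha libraries. These ranges did not overlap, by a narrow gap. The level of Klk7 itself overlapped between genotypes (log2 fold change 0.05 ± 0.20, SE), and a share also moves with the other genes in the sum. Klk5 held 23.5% to 29.1% in p63beta and 21.5% to 25.8% in p63alpha, which did overlap, as did the shares of all the other kallikrein genes in epidermis. The shares are not independent of each other, and no test was made of them.

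The comparison of genotypes in epidermis asked whether tissue shows the same differences. No member passed edgeR's test there either, at a threshold that called 0.232% of the 13796 genes tested, and the direction was mostly the other way: 8 of the 9 kallikrein genes had log2 fold changes above 0, and their median was 0.32, beside -0.0039 for all genes. That median was 0.18 among the libraries with EP names alone, and 0.19 with 6 of the 9 positive without p63beta library KO2. In CPM, Klk10 was the 1 member of 10 whose p63beta libraries all lay above all p63alpha libraries. That pattern was seen in 1.47% of genes tested. On log2 TPM, whose median over all genes was shifted by -0.0867 or -0.104 depending on the pseudocount, the values of Klk7, Klk8, Klk11 and Spink5 were slightly negative.

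**Figure D4:**
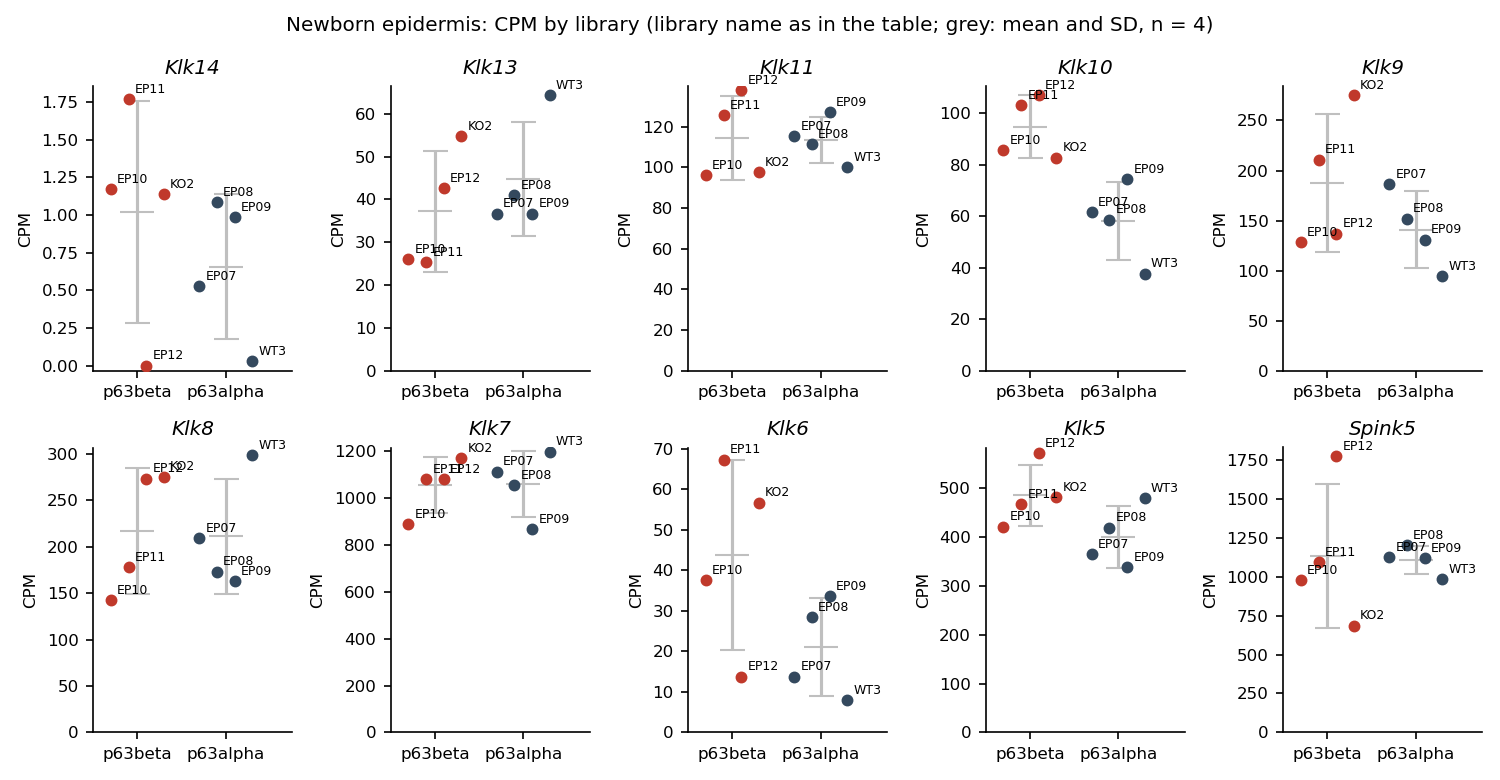
Each panel plots the level of 1 gene, in CPM on a linear axis, in the 4 p63beta (left, red) and 4 p63alpha (right, dark) epidermis libraries, with the mean and SD in grey. Klk10 is the panel in which the genotypes do not overlap, from 82.7 CPM upwards in p63beta and up to 74.4 CPM in p63alpha.

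Klk10 (chr7:43781054-43785410) measured 85.7, 103, 107 and 82.7 CPM in p63beta libraries EP10, EP11, EP12 and KO2, against 61.5, 58.6, 74.4 and 37.7 CPM in p63alpha libraries EP07, EP08, EP09 and WT3. In CPM the lowest p63beta library exceeded the highest p63alpha library. In TPM the genotypes overlapped by a narrow margin, at 100.8 in p63beta library KO2 and 101.3 in p63alpha library EP09. The means were 94.6 ± 12.2 CPM in p63beta and 58.1 ± 15.2 CPM in p63alpha (SD, n = 4 each). The fold fitted by edgeR was 1.71, or 0.78 ± 0.18 on the log2 scale (SE, adjusted p 0.195). KO2 and WT3 carry another naming scheme in the table than the EP libraries. Among the EP libraries alone, 3 against 3, the log2 fold change of Klk10 was 0.67 (edgeR adjusted p 0.478), and in the other scheme, 1 against 1, it stood at 82.7 CPM in p63beta and 37.7 CPM in p63alpha. With the naming scheme as a term the adjusted p was 0.126. In the authors' deposited table, where 0.678% of genes were called higher, Klk10 had a log2 fold change of 0.78 with an adjusted p of 0.0132. DESeq2 as run here gave 0.0152, with 0.696% of genes called higher. Beside Klk10, the summed level of 6 melanocyte markers was also without overlap, at 303 to 430 CPM in p63beta and 104 to 265 CPM in p63alpha, with all 6 positive, and its part in the result was not tested.

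Klk6 had a larger ratio but a wider spread in epidermis. It measured 37.5, 67.3, 13.8 and 56.7 CPM in p63beta libraries EP10, EP11, EP12 and KO2, against 13.8, 28.5, 33.6 and 8.02 CPM in p63alpha libraries EP07, EP08, EP09 and WT3. EP12 lay among the p63alpha values, and the log2 fold change of 1.18 ± 0.51 (SE) did not pass (edgeR adjusted p 0.9999). Without KO2 and WT3 it was 0.71. In the authors' deposited table Klk6 had a log2 fold change of 1.19 and an adjusted p of 0.524. The summed basal keratinocyte markers were lowest in p63beta library EP12 (8010 CPM) and p63alpha library WT3 (8398 CPM). They stood at 12884 to 19381 CPM in the other epidermis libraries, and their part in the Klk6 values was not tested.

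The proteases that lead the tissue by level overlapped between genotypes. Klk7 measured 890, 1082, 1083 and 1172 CPM in p63beta libraries EP10, EP11, EP12 and KO2, against 1113, 1056, 867 and 1198 CPM in p63alpha libraries EP07, EP08, EP09 and WT3. The values were interleaved, with a log2 fold change of 0.05 ± 0.20 (SE, edgeR adjusted p 0.9999). Klk5 measured 421, 467, 571 and 481 CPM in p63beta and 364, 419, 338 and 480 CPM in p63alpha, in the same order of libraries, so that 2 p63beta libraries were above all p63alpha libraries (0.32 ± 0.20, SE, edgeR adjusted p 0.9999). Klk8 and Klk11, lower in p63beta keratinocytes, overlapped in epidermis: Klk8 measured 142, 178, 273 and 275 CPM in p63beta and 209, 173, 163 and 299 CPM in p63alpha (0.09 ± 0.31, SE). Klk11 measured 96.1, 126, 138 and 97.6 CPM in p63beta and 115, 111, 127 and 99.9 CPM in p63alpha (0.07 ± 0.15, SE). For both, p63beta libraries lay on either side of most p63alpha values, and neither passed (edgeR adjusted p 0.9999 for each).

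Klk9 stood at 129 to 275 CPM in p63beta and 94.6 to 186 CPM in p63alpha (log2 fold change 0.50 ± 0.30, SE), and Klk14 at 0 to 1.77 CPM in p63beta and 0.0310 to 1.08 CPM in p63alpha (0.76 ± 0.98, SE). Klk13 was the 1 kallikrein gene with a negative value, at 25.4 to 54.7 CPM in p63beta and 36.7 to 64.4 CPM in p63alpha (-0.20 ± 0.33, SE). Spink5 measured 977, 1092, 1774 and 685 CPM in p63beta libraries EP10, EP11, EP12 and KO2, against 1125, 1201, 1118 and 983 CPM in p63alpha libraries EP07, EP08, EP09 and WT3. The highest and the lowest value both belonged to p63beta, and the log2 fold change was 0.08 ± 0.25 (SE). These 4 genes had an edgeR adjusted p of 0.9999. Among the EP libraries alone the log2 fold changes were 0.069 ± 0.25 for Klk9, 0.25 ± 1.04 for Klk14, -0.22 ± 0.24 for Klk13 and 0.22 ± 0.25 for Spink5 (SE, edgeR adjusted p 0.9994 for each). In the same libraries they were 0.44 for Klk5, 0.059 for Klk7, 0.18 for Klk8 and 0.084 for Klk11, and none passed. The ratio of the kallikrein sum to Spink5 in TPM was 6.63, 7.26, 4.76 and 12.8 in p63beta and 6.45, 5.93, 5.57 and 8.16 in p63alpha, in the same order of libraries, with the highest ratio of each genotype in the KO2 and WT3 naming scheme.

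The epidermis table lists transcripts, with 1 for each of 8 of the members, 2 for Klk11 and 4 for Klk6. Of the Klk11 TPM, the transcript NM_001177373 held 89.3% ± 7.19 in p63beta and 89.3% ± 3.24 in p63alpha (SD, n = 4 each). Of the Klk6 TPM, NM_011177 held 79.2% ± 12.3 in p63beta and 82.1% ± 15.6 in p63alpha, and NM_001164698 held 20.6% in p63beta and 17.4% in p63alpha. The genotypes differed by less than the spread between libraries in each case.

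**Figure D5:**
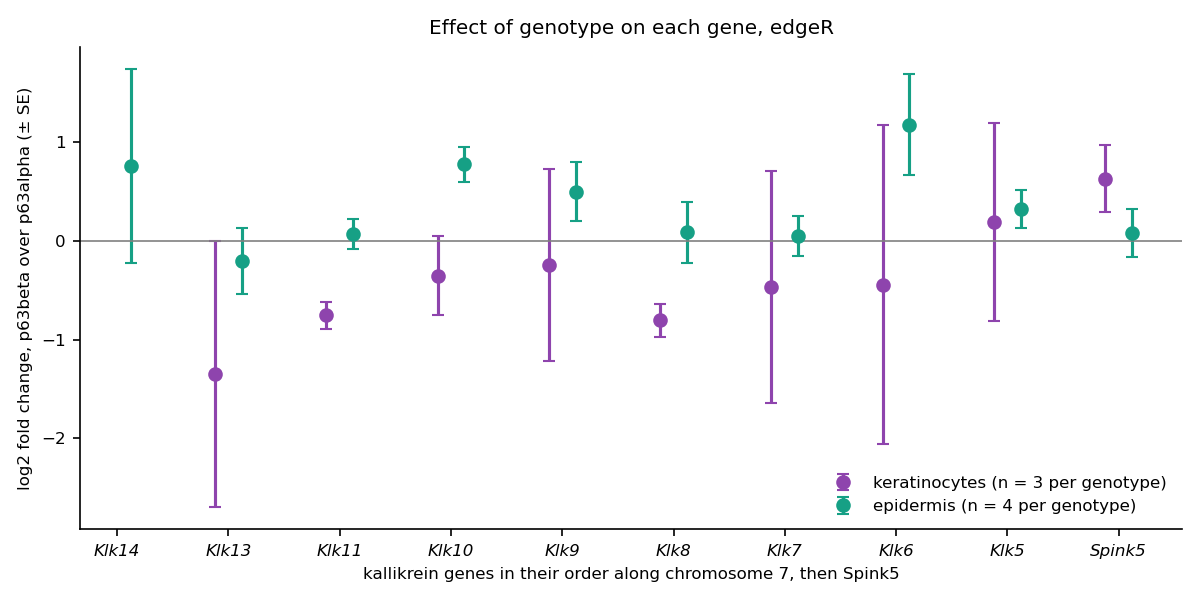
Points give the log2 fold change of p63beta over p63alpha with its SE from edgeR, in keratinocytes (purple, 3 libraries per genotype) and epidermis (green, 4 per genotype), for the kallikrein genes in their order along chromosome 7 and then Spink5; Klk14 was not tested in keratinocytes. Klk8 and Klk11 in keratinocytes and Klk10 in epidermis are the values farthest from 0 relative to their errors.

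Whether the effect of genotype differed between epidermis and keratinocytes was tested as an interaction over all 14 libraries. No gene passed, neither a member nor any other (0% of 14659 genes, with 618 at an unadjusted p under 0.05 in edgeR). The largest differences relative to their errors among the members were those of Klk11, with an effect of 0.07 in epidermis and -0.75 in keratinocytes (difference 0.84 ± 0.21, SE, unadjusted p 0.00144 in edgeR), and Klk10, with 0.78 in epidermis and -0.35 in keratinocytes (difference 1.15 ± 0.41, SE, unadjusted p 0.0151 in edgeR). For Klk8 the difference was 0.91 ± 0.44 (SE, unadjusted p 0.0571 in edgeR), and for Spink5 it was -0.54 ± 0.43 (SE). All 10 had an edgeR adjusted p of 0.99997, so a difference between the systems was not shown for any of them.

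The other genes around this cascade were described as lists. The remaining 17 genes of the kallikrein family were all in both tables, and none was abundant enough to be tested in either. Of 15 other epidermal proteases, 4 had a positive log2 fold change in keratinocytes (median -0.13) and 12 in epidermis (median 0.20), with none called. The lowest unadjusted p-values in keratinocytes were those of Prss8, which encodes the membrane protease prostasin (-0.48 ± 0.20, SE), Tmprss13 (-0.45 ± 0.19) and Blmh, which encodes bleomycin hydrolase and helps to break down filaggrin (0.20 ± 0.09). In epidermis they were those of Capn1 (0.36 ± 0.15), Plau (-0.83 ± 0.38) and Ctsl (0.26 ± 0.16).

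Among 14 other protease inhibitors, 1 of 8 tested was positive in keratinocytes (median -0.19) and 7 of 13 in epidermis (median 0.12), none called. Spint1, which encodes the matriptase inhibitor HAI-1, had -0.35 ± 0.13 (SE) in keratinocytes, Serpinb5 -0.17 ± 0.14 and Spint2 -0.12 ± 0.13. In epidermis Spink12 (3.04 ± 0.94) and Spink7 (2.34 ± 1.17), relatives of Spink5, were low, at 1.79 and 2.30 CPM in p63beta and 0.212 and 0.479 CPM in p63alpha, and Serpinb12 had -0.51 ± 0.26. Of the genes whose proteins kallikreins cut, 1 of 5 tested was positive in keratinocytes (median -0.47) and 1 of 6 in epidermis (median -0.16), again with none called. Dsg1a, a desmoglein 1 gene, had -0.79 ± 0.38 in keratinocytes and -0.29 ± 0.19 in epidermis, and Cdsn, the corneodesmosin gene, -0.92 ± 0.83 in keratinocytes and 0.30 ± 0.22 in epidermis. Dsg1b had -0.47 ± 0.36 in keratinocytes and Dsg1c -0.58 ± 0.59 in epidermis.

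Kallikreins also signal through protease-activated receptors. In the list of these receptors and the cytokines downstream, 2 of 6 tested genes were positive in keratinocytes (median -0.23) and 2 of 4 in epidermis (median -0.036), with none called. The receptor gene F2rl2 averaged 0.186 ± 0.0775 CPM in p63beta and 0.673 ± 0.166 CPM in p63alpha keratinocytes (SD, n = 3 each), or -1.84 ± 0.44 on the log2 scale (SE, edgeR adjusted p 0.432). Il1a had 0.61 ± 0.24 and Tslp 0.40 ± 0.27 in keratinocytes, and Il1b 1.26 ± 0.59, F2r -0.33 ± 0.23 and F2rl1, the gene of protease-activated receptor 2, -0.091 ± 0.17 in epidermis (SE).

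Genes of the granular layer and late differentiation, the stage at which kallikreins are made, were split in keratinocytes, with 11 of 21 positive (median 0.031), and mostly positive in epidermis, with 19 of 24 (median 0.20). None was called in either. In keratinocytes the cornified envelope genes went different ways: Sprr2h (-0.64 ± 0.12) and the transglutaminase gene Tgm1 (-0.83 ± 0.17) had negative values, and involucrin, Ivl, a positive one (1.47 ± 0.46), with edgeR adjusted p of 0.289, 0.305 and 0.575. In epidermis Cnfn (0.78 ± 0.33), Sprr1a (0.94 ± 0.40) and Sprr1b (2.26 ± 1.13) were positive. Of 11 transcription factors of late differentiation, 4 were positive in keratinocytes (median -0.22) and 9 in epidermis (median 0.18). Their summed level did not overlap between genotypes in keratinocytes, at 1152 to 1250 CPM in p63beta and 1307 to 1608 CPM in p63alpha. Its part in the kallikrein levels was not tested. Zfp750, a regulator of late differentiation known as a target of p63, averaged 144 ± 16.5 CPM in p63beta and 267 ± 64.8 CPM in p63alpha keratinocytes (SD, n = 3 each; log2 fold change -0.88 ± 0.19, SE, edgeR adjusted p 0.360), and Grhl1 (-0.48 ± 0.12) and Barx2 (-0.88 ± 0.41) were not called either. In epidermis Gata3 had -0.43 ± 0.15, Grhl3 0.63 ± 0.32 and Hopx 0.78 ± 0.41 (SE).

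Across the 6 keratinocyte libraries the members fell into groups by their profile. Klk5, Klk6, Klk7, Klk9, Klk10 and Klk13 ran together, for example Klk7 with Klk10 (Pearson r 0.99) and Klk6 with Klk9 (0.99), and Klk8 ran with Klk11 (0.99) but less with Klk7 (0.65). Spink5 correlated at -0.49 with Klk8 and -0.56 with Klk11, but positively with the larger group, from 0.19 with Klk7 to 0.49 with Klk9. In the 8 epidermis libraries Klk8 and Klk11 did not run together (r -0.05). The larger group did not hold there either: r was -0.33 for Klk7 with Klk10 and -0.61 for Klk10 with Klk13, but 0.67 for Klk6 with Klk9. Klk8 ran instead with Klk7 (0.82) and Klk13 (0.83). Spink5 correlated in epidermis at 0.79 with Klk11 and -0.03 with Klk8. Its values with the other genes compared ran from -0.44 (Klk6) to 0.24 (Klk10). In epidermis the mean of the kallikrein genes, used next, therefore averages members that did not all run together. The genes whose profile was most like the mean log2 CPM of the kallikrein genes in both systems, by the lower of the 2 r values among 9393 genes, were Dusp5 (0.97 in keratinocytes and 0.93 in epidermis), Ctsl (0.97 and 0.89), Brinp1 (0.88 and 0.88), Gsdma (0.95 and 0.84) and Cd68 (0.94 and 0.83). Those most like Spink5 were Sorl1 (0.97 in keratinocytes and 0.92 in epidermis), Utrn (0.91 and 0.91), Mcf2l (0.89 and 0.91), Ptpn13 (0.87 and 0.95) and Erp44 (0.88 and 0.87). These correlations describe 6 and 8 libraries that share replicate number, naming scheme and genotype, and none was tested.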

How the data were processed

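RNA was measured in 6 keratinocyte and 8 epidermis libraries. The authors deposited keratinocyte counts, 1 per RefSeq gene on mm10 and made from read pairs with featureCounts 1.5.2 (strand setting 2, minimum overlap 25 bases), per the file headers, and FPKM values that follow from these counts. For epidermis the authors deposited expected counts and TPM per gene and transcript from Salmon, per the submitters' processing notes, with no version given in the sources used here. The epidermis columns say WT or KO, read as p63alpha and p63beta because the keratinocyte count table's header ties these words to the genotypes. The authors deposited DESeq2 log2 fold changes (shrunken for keratinocytes) with adjusted p-values, and the 14 per-library columns in those tables were not used.

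Counts, rounded for epidermis, were fitted per system with edgeR 4.0.16 in R 4.3.3 (TMM, filterByExpr, robust quasi-likelihood F test), with Benjamini-Hochberg adjustment over all genes tested and calls at an adjusted p under 0.05. The steps were tested on simulated data, with changes set in genes above 5 CPM. Of 100 changes of 2-fold, 66 were recovered in keratinocytes, 40 in epidermis and 17 in the interaction. Of 100 changes of 4-fold, 92, 95 and 81 were recovered in the same order. Genes called falsely numbered 14, 7 and 0. The members and gene lists were chosen with earlier results of these data known. Values in every library are given for members that passed in any setting, had no overlap between genotypes or were highest by FPKM or TPM; of each list, at most the 3 genes with the lowest unadjusted p are named. Alternatives were RLE factors, no filter, no robust estimation, each library left out, DESeq2 1.42.0, limma 3.58.1 on log2 FPKM or log2 TPM (pseudocounts 1 and 0.1), a replicate block, a term for the naming scheme and the EP libraries alone. The replicate numbers, taken from the labels, were treated as pairing the keratinocyte libraries. Deviations from the group means correlated at 0.595, 0.517 and 0.210 over 12631 genes for libraries sharing number 1, 2 and 3. Other pairs gave -0.532 to 0.187. Deviations within a genotype cancel out, so these values are not independent of each other. The value for number 3 was close to those of p63beta 2 with p63alpha 3 (0.187) and p63beta 3 with p63alpha 2 (0.185). Its pairing is thus weakly backed, and the blocked fits and pair values rest on it. Profiles were compared on log2(CPM + 1) among genes with a mean of at least 5 CPM.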

Additional observations from a re-analysis of the deposited data

Results flagged for a closer look

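Of 20 groups of 4 epidermis libraries, 1 for each member and genotype, 1 held a library far from the other 3, and chance gives about 1 in 20. Klk13 stood at 64.4 CPM in the p63alpha library WT3 and at 36.7 to 41.1 CPM in the other p63alpha libraries. The gap to the nearest library was 0.841 of the group's range, above Dixon's 95% critical value for 4 libraries. WT3 is the 1 p63alpha library of its naming scheme, and the p63beta library of that scheme, KO2, was also the highest of its genotype for Klk13, at 54.7 CPM. The part of the naming scheme in this value was not tested.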

How the results depend on the processing

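In keratinocytes 14 genes were called, and 211 with DESeq2, 37 with the replicate block, 1 to 4 with 1 library left out, and 585, 0 and 1 with the block and pair 1, 2 or 3 left out. The members called were 0, but 2 with DESeq2 (Klk8 and Klk11), 1 with the block (Klk8) and 4 with the block without pair 1. The block changed no other call of a member. In epidermis 32 genes were called, and 152 with DESeq2, 8 in the EP libraries alone and 10 to 28 with 1 library left out; 1 member, Klk10, was called with DESeq2 and 0 otherwise. Of 484 values of single members under another setting, 433 kept their direction and side of the threshold, 8 passed it and 43 changed sign. With 1 library left out, Klk8 kept its direction in keratinocytes (-0.94 to -0.68), as did Klk11 (-0.86 to -0.68) and Spink5 (0.40 to 1.13), and Klk10 in epidermis (0.65 to 0.87). The sign turned in keratinocytes for Klk5 (-1.50 to 1.20), Klk6 (-3.51 to 2.09), Klk7 (-2.62 to 0.73), Klk9 (-1.46 to 1.12), Klk10 (-0.79 to 0.014) and Klk13 (-3.20 to 0.93). It turned in epidermis for Klk7 (-0.070 to 0.17), Klk8 (-0.11 to 0.37), Klk11 (-0.027 to 0.16), Klk13 (-0.52 to 0.094) and Spink5 (-0.22 to 0.23), and in the difference between systems for Klk5 (-0.88 to 1.84), Klk6 (-0.90 to 4.71), Klk7 (-0.69 to 2.68), Klk9 (-0.62 to 1.98), Klk13 (-1.14 to 3.01) and Klk14 (-0.34 to 1.58). Klk5 in keratinocytes was also negative with limma on log2 FPKM (-0.11 and -0.16 at pseudocounts 1 and 0.1), with the block (-0.13), and with the block without pair 1 (-0.45) or pair 3 (-0.010). In epidermis limma on log2 TPM gave -0.042 at both pseudocounts for Klk7, -0.014 for Klk8 (-0.0145 at 0.1), -0.042 for Klk11 (-0.0426 at 0.1) and -0.091 for Spink5 (-0.0915 at 0.1). The cause of the other changes was not tested. No paired analysis was possible in epidermis because the columns carry no replicate numbers. Klk14 in keratinocytes, and Klk13 in all but the libraries numbered 1, are limited by depth. With 3 or 4 libraries per genotype, a value that did not pass does not show that the genotypes are alike.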
